A study of Rattus norvegicus with 8 samples.

Results

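Superoxide dismutases, catalase and glutathione peroxidases are the enzymes that clear superoxide and peroxides, and 7 of their genes were followed in rat liver: Sod1, Sod2, Sod3, Cat, Gpx1, Gpx3 and Gpx4. They were taken by symbol, as every probe set whose only platform gene symbol was one of these names, which gave 8 probe sets of the 20826 with a single symbol and 7 genes of 14217. No measured value entered that matching of symbols to probe sets, but the genes themselves were chosen with earlier results of these data known. The livers came from male rats of the outbred Sprague-Dawley strain that were 4 weeks old at the start and 8 weeks old at the end. For 4 weeks the hydrogen water group drank water with molecular hydrogen dissolved at 0.7 mM, and the control group drank sterilized distilled water, both ad libitum. Both groups ate the same commercial diet and were anesthetized with diethyl ether before blood and liver were taken. The study kept 8 animals a group and 4 arrays a group are described here. Arrays are not tied to animals in the labels, and pooling of RNA is not mentioned, so a p-value here reflects array-to-array spread, which may in part be technical. The comparison asks whether drinking hydrogen water changed the transcripts of these enzymes in the liver.

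Superoxide, formed when oxygen takes up a single electron, is converted by superoxide dismutases to hydrogen peroxide and oxygen. Catalase and the glutathione peroxidases then remove peroxide, catalase by splitting it directly and the peroxidases by spending reduced glutathione. The liver is rich in these enzymes because its mitochondria, peroxisomes and drug-metabolizing oxidases make both oxidants. Several of the genes are known to respond to oxidants or to inflammatory signals, and much of the enzymes' control is also exerted after transcription, through metal loading and through selenium supply, neither of which an array of transcripts sees.

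The upstream sequences of the members were read from RefSeq's promoter windows (assembly GRCr8), as the 250 bases before the annotated start, for the 6 genes with a window. Sod3 had no window and was not searched. Both strands were searched for the core of the antioxidant response element, TGACNNNGC, to which the oxidant-responsive factor NRF2 binds, and for the GC box GGGCGG, the CCAAT box CCAAT and the TATA box TATAAA, with overlapping matches counted. The antioxidant core was found in 1 of the 6 genes, Sod2, and in 11.02% of all 27457 genes with a window. A gene counts here if any of its windows held the motif. A GC box was found in 5 of the 6 genes, all of these but Cat, and in 33.5% of all genes, with Gpx4 counted through 2 of its 3 windows. CCAAT was found in Sod1, Cat and Gpx4, and in 36.1% of all genes, and TATAAA in Sod1 alone and in 14.1% of all genes. These matches describe letters and are not shown to be bound. The windows of Sod2, Cat and Gpx1 are given because Sod2 alone held the antioxidant core, and Cat and Gpx1 are the pair whose signals are set against each other below; capitals mark the motif matches.
Sod2, chr1:50050169-50050418, minus strand: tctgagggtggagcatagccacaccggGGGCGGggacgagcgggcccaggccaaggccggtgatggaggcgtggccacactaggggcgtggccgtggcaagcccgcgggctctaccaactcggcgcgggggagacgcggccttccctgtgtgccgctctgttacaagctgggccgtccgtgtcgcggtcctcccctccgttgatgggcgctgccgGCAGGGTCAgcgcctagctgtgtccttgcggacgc
Cat, chr3:110329527-110329776, minus strand: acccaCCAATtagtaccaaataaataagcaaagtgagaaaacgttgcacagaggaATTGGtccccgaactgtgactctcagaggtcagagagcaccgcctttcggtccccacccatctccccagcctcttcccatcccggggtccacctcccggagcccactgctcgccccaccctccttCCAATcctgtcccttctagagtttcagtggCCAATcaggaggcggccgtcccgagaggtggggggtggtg
Gpx1, chr8:117905212-117905461, plus strand: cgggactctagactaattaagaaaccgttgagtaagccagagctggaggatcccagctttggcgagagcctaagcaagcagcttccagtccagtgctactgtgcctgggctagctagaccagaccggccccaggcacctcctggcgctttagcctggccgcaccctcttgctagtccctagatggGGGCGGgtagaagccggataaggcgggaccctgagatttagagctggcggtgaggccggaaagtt

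Each array reported a signal for 31099 probe sets, and the arrays were not on a common scale. Their 2% trimmed mean signal was 80.3 to 103 on hydrogen water arrays, against 94.5 to 132 on control arrays (p = 0.114, exact two-sided permutation test), so levels are given after quantile normalization, in signal units. Hepatocyte markers were bright in both groups: albumin (Alb) had a log2 signal of 13.48 ± 0.06 on hydrogen water arrays, against 13.38 ± 0.10 on control arrays (SD, n = 4 each), and 7 of 7 tested markers did not pass. Of 6 kidney tubule markers, 5 fell below the filter on dim probe sets, among them Umod and Aqp2. For Gapdh, whose control probe sets track RNA integrity, the log2 signal at the 3′ end exceeded that at the 5′ end by 0.38 ± 0.08 on hydrogen water arrays and by 0.22 ± 0.10 on control arrays (SD, 4 arrays each; exact permutation p = 0.0571, two-sided). Its part in the results below was not tested.

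None of the 7 enzyme genes differed between hydrogen water and control livers past the threshold, and for 6 of the 7 tested probe sets the 95% interval of the change after quantile normalization lay within 1.25-fold in either direction. The 1.25-fold bound did not hold under every scaling. Over 5 scalings the interval reached 30.0% for Sod1, 34.6% for Sod2, 47.0% for Gpx1, 30.3% for Gpx4 and −25.5% for Gpx3. Gpx1, the abundant cytosolic glutathione peroxidase, had the smallest p: its signal was 11.7% higher with hydrogen water (95% interval 2.48% to 21.7%, adjusted p = 0.261 in limma). Sod3, the extracellular dismutase, had the largest difference of the tested members, at −15.4% with an interval that included 0. Of the 8 probe sets 7 passed the filter on dim signals and were tested, 0 of these 7 passed an adjusted p of 0.05 in limma, and 1 was under 0.05 before adjustment. Over all tested probe sets 0.825% passed and 12.5% were under 0.05 before adjustment. Of the members 3 were nominally higher and 4 lower, with a median log2 difference of −0.02, against −0.00 over all tested probe sets.

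**Figure D1:**
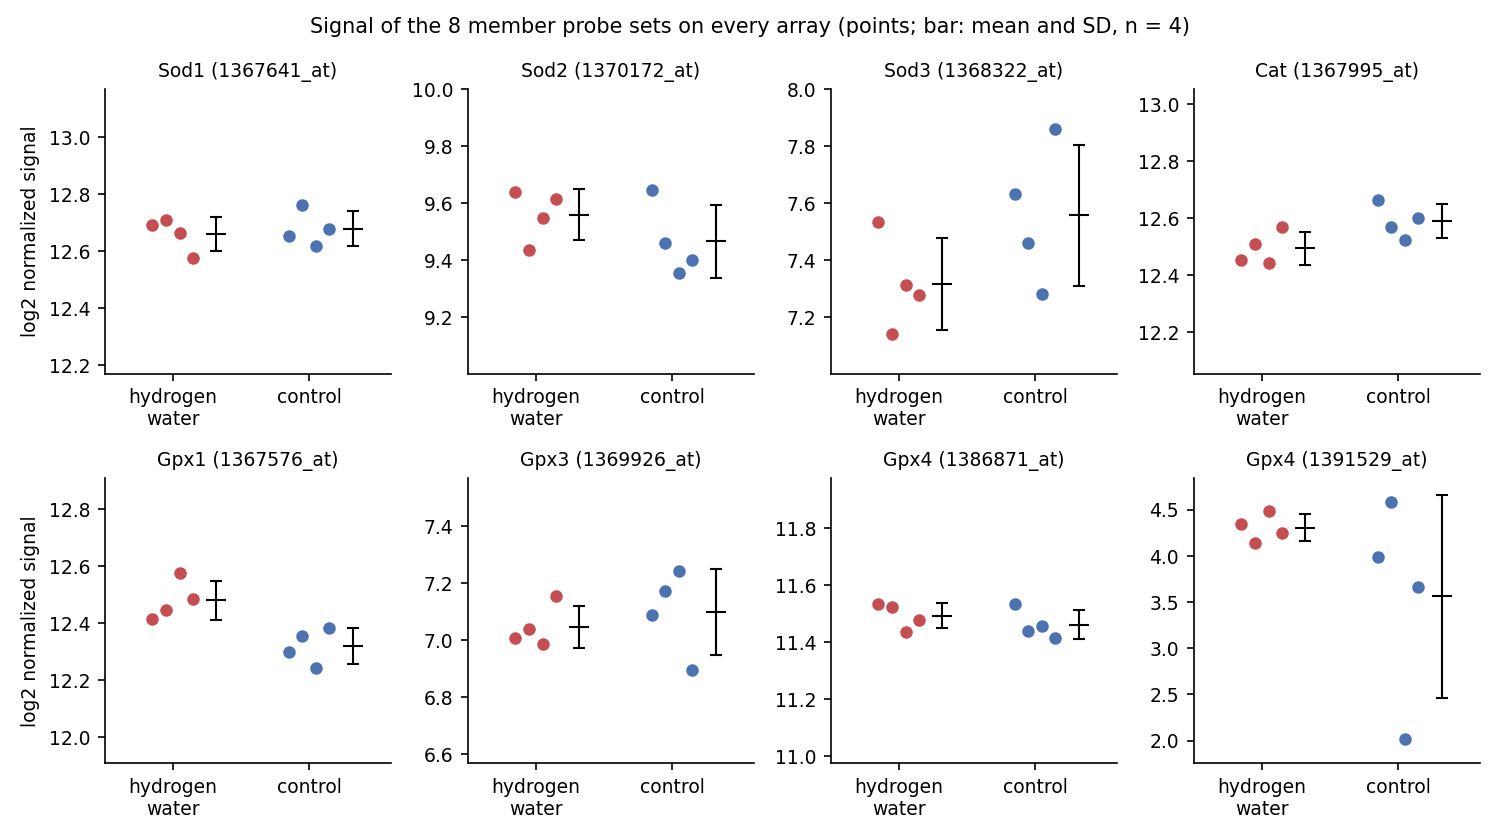
Log2 normalized signal of the 8 probe sets on every array, hydrogen water in red and control in blue, with the group mean and SD (n = 4) beside the points. The vertical axes differ between panels. The groups are apart at Gpx1 alone, and the second Gpx4 probe set is the only one with an SD over 1 on the log2 scale in a group, 1.10 on control arrays.

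Sod1 (probe set 1367641_at) encodes the copper-zinc superoxide dismutase of the cytosol, the main dismutase of most cells. Its normalized signal was 6609, 6704, 6482 and 6104 on hydrogen water arrays 1 to 4, against 6448, 6948, 6282 and 6559 on control arrays 1 to 4. The groups overlapped, with the lowest value on a hydrogen water array and the highest on a control array. The log2 difference was −0.02 ± 0.05 (SE; adjusted p = 0.939 in limma). Its 95% interval ran from −8.97% to 7.06%.

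Sod2 (probe set 1370172_at) encodes the manganese dismutase of the mitochondrial matrix, which is known to be induced by inflammatory cytokines. It had a normalized signal of 795, 691, 747 and 781 on hydrogen water arrays, against 800.2, 703, 652 and 675 on control arrays. The groups overlapped, since control array 1 was above every hydrogen water array. The log2 difference was 0.09 ± 0.09 (SE; adjusted p = 0.746 in limma), with a 95% interval of −6.69% to 22.0%.

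Sod3 (probe set 1368322_at) encodes the secreted copper-zinc dismutase, which binds to the extracellular matrix. Its deposited signal, before any scaling, was 140.0, 131, 127 and 153 on hydrogen water arrays, against 251, 160.4, 196 and 233 on control arrays, so the groups did not overlap in the deposited values, as was so in that direction at 14.6% of the tested probe sets. After normalization it was 183, 139, 157 and 153 on hydrogen water arrays, against 196, 174, 153 and 230.2 on control arrays, and the groups overlapped. The log2 difference was −0.24 ± 0.14 (SE; adjusted p = 0.540 in limma), with an interval of −31.7% to 4.69%. The interval lay below 0 in 3 of 21 other fits: under median scaling (−0.58 to −0.03 on the log2 scale), without control array 3 (−0.64 to −0.03) and without normalization (−0.997 to −0.174). In the last the difference was −0.59 (adjusted p = 0.0942), where the median of all tested probe sets was itself at −0.33. On the normalized arrays it was −0.14 without control array 4 and −0.33 without control array 3, the ends of the range when 1 array was left out.

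Cat (probe set 1367995_at) encodes catalase, the heme enzyme of peroxisomes that splits hydrogen peroxide. Its normalized signal was 5601, 5834, 5569 and 6077 on hydrogen water arrays, against 6482, 6077, 5882 and 6213 on control arrays. On 3 of 4 hydrogen water arrays it lay below the lowest control array, and hydrogen water array 4 lay within the control range. The log2 difference was −0.10 ± 0.05 (SE; adjusted p = 0.526 in limma), with an interval of −13.7% to 1.54%.

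Gpx1 (probe set 1367576_at) encodes the selenium-dependent glutathione peroxidase of the cytosol and mitochondria, a major peroxidase of the liver. It had a normalized signal of 5456, 5579, 6104 and 5735 on hydrogen water arrays, against 5034, 5245, 4846 and 5349 on control arrays. Every hydrogen water array lay above every control array, as was so in either direction at 7.48% of all tested probe sets, and upward at 3.85%. The log2 signal was 12.48 ± 0.07 on hydrogen water arrays and 12.32 ± 0.06 on control arrays (SD, n = 4 each), a difference of 0.16 ± 0.06 (SE) with an unadjusted p of 0.0165 and an adjusted p of 0.261 in limma. In the deposited values, which carry the difference in array brightness, Gpx1 was 4704, 5324, 5688 and 5684 on hydrogen water arrays, against 5950, 4838, 5850 and 5432 on control arrays, and the groups overlapped.

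Red blood cells are also rich in Gpx1, so erythroid markers were set beside it. Of 8 such markers 4 had a probe set matched by symbol and 3 were tested, and for limma 0 passed, even at 0.05 without adjustment. Hemoglobin beta (Hbb) had a log2 signal of 12.03 ± 0.27 on hydrogen water arrays and 11.72 ± 0.25 on control arrays (SD, n = 4 each), and the difference was 0.31 ± 0.14 (SE; limma adjusted p = 0.414). The other tested markers, the heme synthesis gene Alas2 and the anion exchanger Slc4a1, differed by 0.44 ± 0.26 and −0.22 ± 0.44 (SE; limma adjusted p = 0.543 and 0.898). The summed signal of the 4 markers, most of it from Hbb, was 3564 to 5599 on hydrogen water arrays, against 2861 to 4290 on control arrays. None of them is listed at 0, and their part in the Gpx1 values was not tested. Of 7 tested endothelial markers 0 passed in limma and 2 were under 0.05 before adjustment, the sinusoidal receptors Stab2 at 0.42 ± 0.13 and Lyve1 at 0.38 ± 0.13 (SE; limma adjusted p = 0.205 and 0.234). The other tested endothelial markers were Kdr at −0.10, Vwf at −0.16, Pecam1 at −0.04, Tek at 0.005 and Eng at 0.07. The median of this list was 0.005. The summed signal of the 7 was 2383 to 2719 on hydrogen water arrays, against 2190.2 to 2430 on control arrays, and its part in the members' values was not tested. In bulk RNA a change in the share of a cell type and a change in RNA per cell cannot be told apart.

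Gpx3 (probe set 1369926_at) encodes the secreted glutathione peroxidase of plasma, made for the most part by the kidney. It was measured at a normalized signal of 127, 129, 125 and 140.3 on hydrogen water arrays, against 134, 142, 149 and 117 on control arrays. The groups overlapped, and the hydrogen water values all fell inside the control range. The log2 difference was −0.05 ± 0.11 (SE; adjusted p = 0.906 in limma), with an interval of −18.5% to 14.0%.

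Gpx4 encodes the peroxidase that reduces lipid hydroperoxides within membranes and so protects cells from ferroptosis. At its bright probe set, 1386871_at, the normalized signal was 2966, 2940, 2770.4 and 2854 on hydrogen water arrays, against 2966, 2775, 2807 and 2731 on control arrays. The groups overlapped, and the log2 difference was 0.03 ± 0.06 (SE; adjusted p = 0.882 in limma), with an interval of −6.17% to 11.4%. Its second probe set, 1391529_at, was too dim to pass the filter, with a signal of 18.3, 15.6, 20.4 and 17.0 on hydrogen water arrays, against 13.8, 22.0, 1.99 and 10.7 on control arrays. In the fit without a filter it differed by 0.74 ± 0.48 (SE; adjusted p = 0.717 in limma), with an interval from 0.814-fold to 3.44-fold, so it bounds little. The 2 probe sets of Gpx4 are thus not alike in precision, and the bright one carries the measurement.

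**Figure D2:**
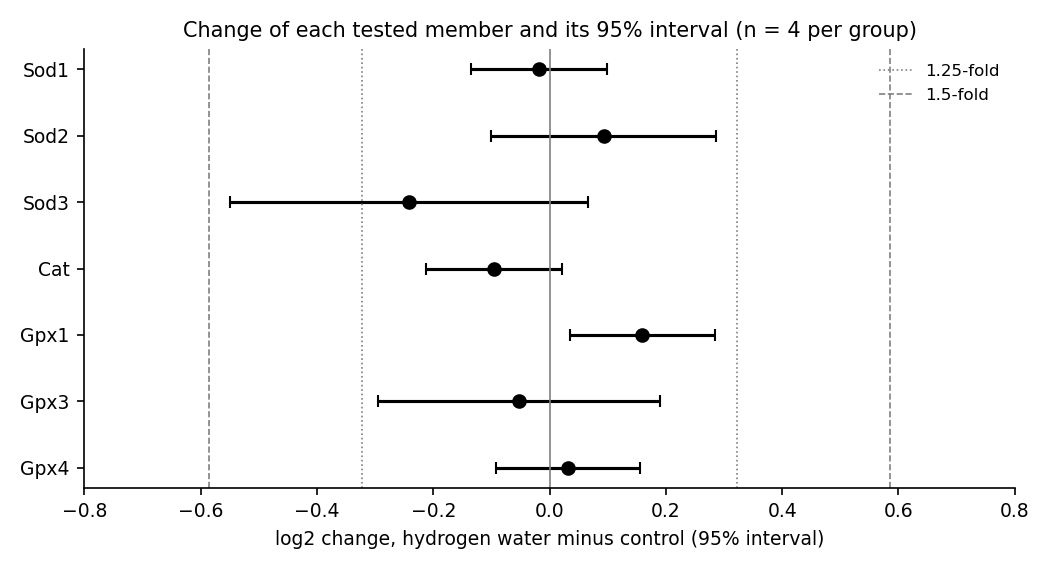
Log2 change, hydrogen water minus control, of the 7 tested probe sets (points) with the 95% interval from limma (bars; n = 4 per group). Dotted lines mark 1.25-fold and dashed lines 1.5-fold in either direction. Every interval lies inside 1.5-fold, that of Sod3 crosses 1.25-fold on the lower side, and that of Gpx1 lies above 0.

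Each of the 7 tested probe sets had a within-group SD below the median of all tested probe sets, which was 0.22 on the log2 scale. It was 0.05 for Gpx4, 0.06 for Cat, 0.06 for Sod1 and 0.07 for Gpx1, and 0.21 for Sod3. The 95% intervals of Sod1, Cat, Gpx1 and Gpx4 were 0.23 to 0.25 wide on the log2 scale, against a median width of 0.69 over all tested probe sets. Those of Sod2 and Gpx3 were 0.39 and 0.48 wide, and that of Sod3 was 0.62 wide. All 7 intervals lay within 1.5-fold. For Sod3 that bound is not firm: in 6 of 16 other fits on quantile-normalized arrays its interval reached past 1.5-fold on the lower side, to a log2 difference of −0.64 without control array 3 and −0.80 with array brightness as a covariate. For the other 6 the interval stayed inside 1.5-fold in those 16 fits, but not always inside 1.25-fold. On the log2 scale the upper bound reached 0.36 for Gpx1 when the prior had no trend. With array brightness as a covariate it reached 0.38 for Sod2 and 0.36 for Gpx3. The lower bound for Gpx3 reached −0.37 without control array 4.

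The scaling of the arrays moved the members, not all the same way: median scaling placed Sod1, Cat, Gpx1 and Gpx4 higher and Sod2, Sod3 and Gpx3 lower than quantile normalization did. Over quantile normalization, cyclic loess, median, trimmed mean and spike-in scaling, the lowest and highest interval bounds for Sod1 were −8.97% and 30.0%. Over the same 5 scalings they were −13.7% and 21.1% for Cat, −9.99% and 34.6% for Sod2, and −6.47% and 30.3% for Gpx4. For Gpx1 they were 2.48% and 47.0%, so that in each of the 5 the interval lay above 0, although no adjusted p passed. For Sod3 they were −33.1% and 8.92%, and for Gpx3 −25.5% and 24.2%. Sod1 was nominally higher under 4 of these scalings and Cat under trimmed mean and spike-in scaling, so neither has a settled sign. Without any scaling Gpx1 differed by −0.04 and the other 6 were between −0.59 and −0.22.

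**Figure D3:**
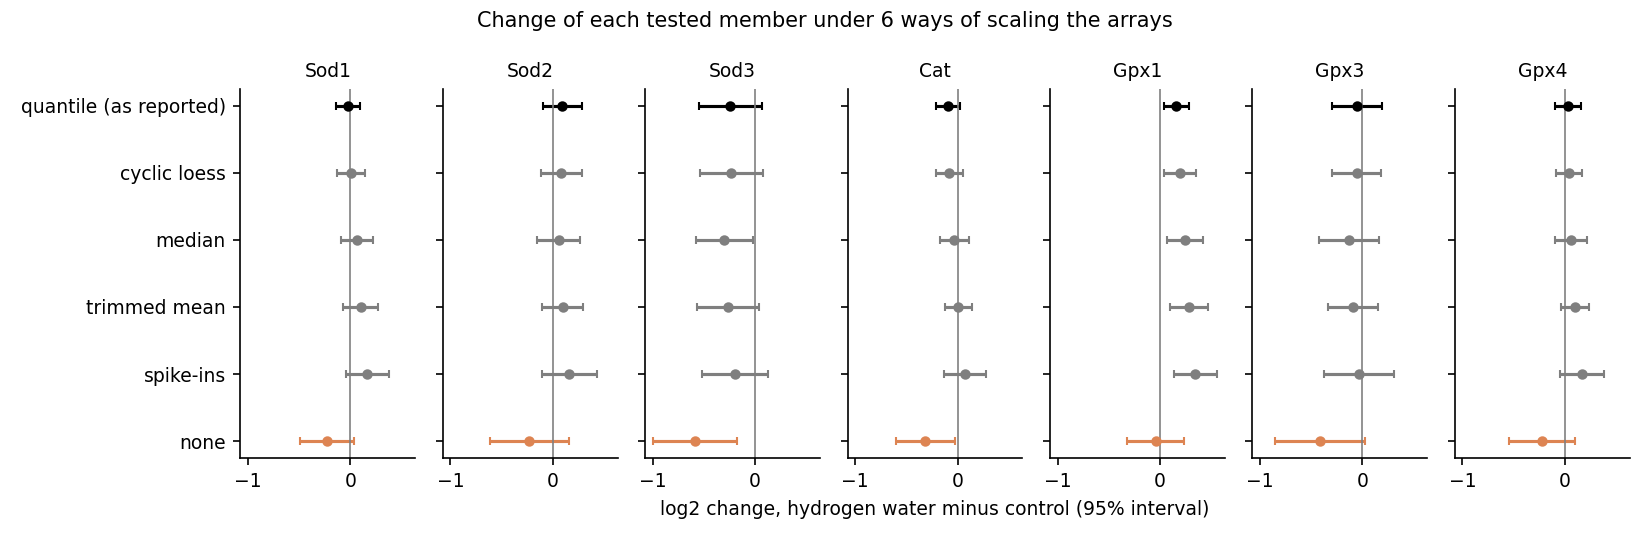
Log2 change, hydrogen water minus control, with its 95% interval (n = 4 per group) for each tested member under 6 ways of putting the arrays on a scale, from quantile normalization (black) through other scalings (grey) to the deposited values (orange). The interval of Gpx1 lies above 0 in each scaled fit, and its point lies at −0.04 without scaling. The points of Sod3 lie below 0 throughout, but its interval includes 0 except under median scaling and without scaling.

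A ratio of 2 genes on the same array does not depend on a single scale factor for that array, so 4 ratios were compared. The values below are after quantile normalization, which is not a single factor, so they can differ from those of unscaled arrays. Without normalization Gpx1 relative to Cat differed by 0.27 and Gpx1 relative to Sod1 by 0.18. The 4 ratios were chosen with earlier results for Sod1, Sod2, Cat and Gpx1 known. Their p-values, adjusted or not, do not account for that choice and are given as description. Gpx1 to Cat and Gpx1 to Sod1 share the same Gpx1 values, so they are not independent of each other. A ratio shows unequal change, not which gene moved. The log2 signal of Gpx1 minus that of Cat was −0.04, −0.06, 0.13 and −0.08 on hydrogen water arrays, against −0.36, −0.21, −0.28 and −0.22 on control arrays. Every hydrogen water array lay above every control array. Gpx1 alone also lay higher without overlap, as 3.85% of all tested probe sets did. The share of gene pairs whose ratio does not overlap between groups was not computed, here or for Gpx1 to Sod1 below. The means were −0.01 ± 0.10 on hydrogen water arrays and −0.27 ± 0.07 on control arrays (SD, n = 4 each), a difference of 0.25, or 1.19-fold (two-sided exact permutation p = 0.0286, the lowest value that 70 arrangements can give; 0.0571 after Benjamini-Hochberg adjustment over the 4 ratios).

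Gpx1 relative to Sod1 differed by 0.18 in the same direction, without overlap between groups (p = 0.0286, exact two-sided permutation test; 0.0571 adjusted over the 4 ratios). Leaving out any 1 control array gave p-values of 0.0857 to 0.114 by the same exact permutation test. Cat relative to Sod1 differed by −0.08 (p = 0.286, exact permutation test) and Sod2 relative to Sod1 by 0.11 (p = 0.314, exact permutation test), and both groups overlapped in each. The last of these lay at −0.00 on the unscaled arrays and after scaling by the median, the trimmed mean or the spike-ins. After adjustment none of the 4 ratios passed 0.05. Gpx1 to Cat and Gpx1 to Sod1 were already at the lowest p that the arrangements allow. Beside the other ratios, 0.0571 was then the lowest adjusted value within reach (exact permutation test). Not passing therefore says little about Gpx1 to Cat and Gpx1 to Sod1.

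**Figure D4:**
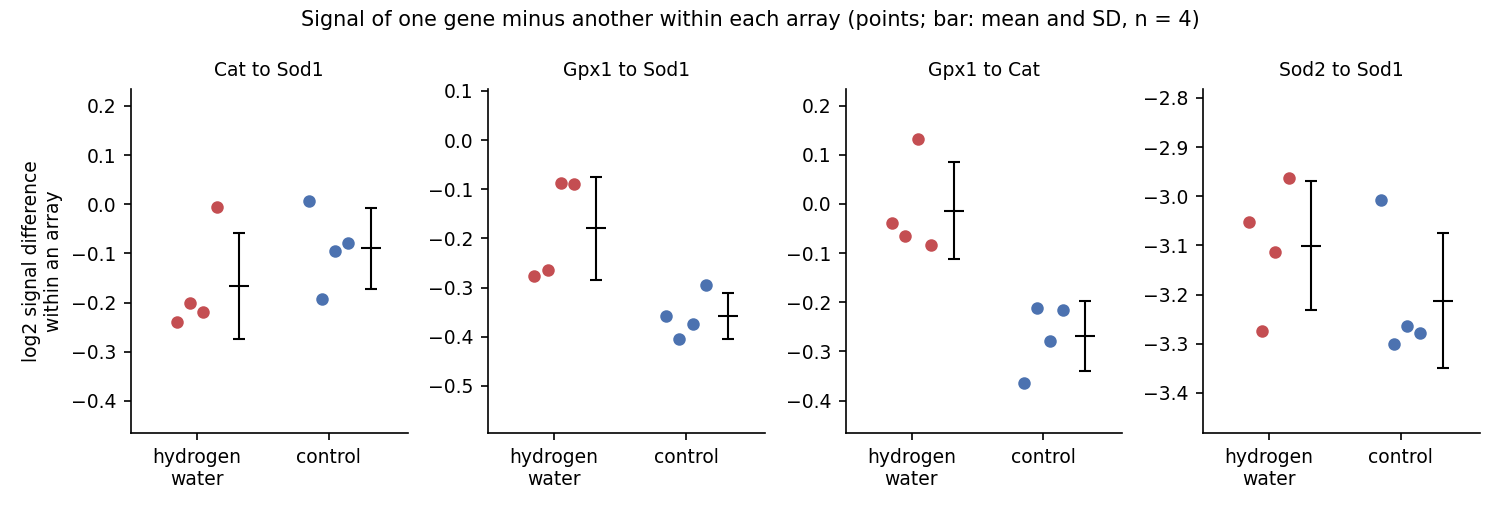
Log2 normalized signal of the first gene minus that of the second within each array, hydrogen water in red and control in blue, with the group mean and SD (n = 4) beside the points. Each panel spans the same height. The groups are apart for Gpx1 to Cat and for Gpx1 to Sod1, as they are for Gpx1 alone.

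Genes that work beside the members were counted from lists of general knowledge. Among the other glutathione peroxidases 2 of 5 were tested, and neither Gpx7 nor Gpx8 passed, at log2 differences of −0.00 ± 0.19 and −0.23 ± 0.21 (SE). Gpx2 and Gpx6 were too dim for the test. Of 18 tested genes of the peroxiredoxin, thioredoxin and glutathione supply 0 passed in limma and 1 was under 0.05 before adjustment, with a median of −0.04. That gene was the glutaredoxin Glrx, at 0.52 ± 0.11 (SE; adjusted p = 0.0560) for the brighter of its 2 probe sets. Idh1, which supplies cytosolic NADPH, differed by −0.14 ± 0.07, the peroxiredoxin Prdx6 by −0.14 ± 0.08 and sulfiredoxin Srxn1, which repairs oxidized peroxiredoxins, by −0.27 ± 0.20.

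The members depend on metals, selenocysteine and peroxisomal import, and 13 of 13 genes on that list were tested. By limma 0 passed, 1 was under 0.05 before adjustment, and the median was −0.01. Pstk, the kinase that prepares the selenocysteine transfer RNA, differed by −0.74 ± 0.27 (SE; adjusted p = 0.272). Eefsec, the elongation factor that brings selenocysteine to the ribosome, differed by −0.13 ± 0.11, Ccs, which loads copper onto Sod1, by 0.09 ± 0.09, and the peroxisomal import receptor Pex5 by −0.09 ± 0.09. Of 18 tested genes whose enzymes make superoxide or hydrogen peroxide 0 passed in limma and 0 were under 0.05 before adjustment, with a median of 0.04. The NADPH oxidase subunits Ncf4 and Cybb differed by −0.39 ± 0.18 and −0.25 ± 0.15 (SE), the oxidase Nox4 by 0.45 ± 0.23, and the peroxisomal hydroxyacid oxidase Hao2 by −0.12 ± 0.06.

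**Figure D5:**
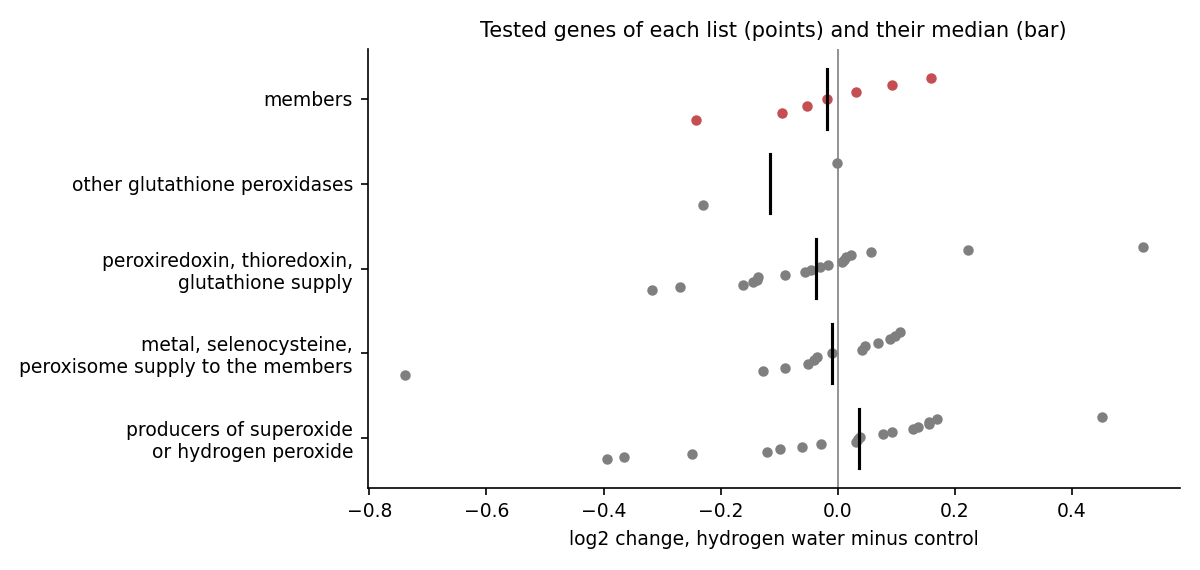
Log2 change, hydrogen water minus control, of every tested gene in each list (points) and the list median (vertical bar), with the members in red. The median of the members and those of the lists of supply and of oxidant production lie between −0.04 and 0.04. That of the other glutathione peroxidases, with 2 tested genes, lies at −0.12. No point passed the adjusted threshold.

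The gene whose centred log2 signals over the 8 arrays lay nearest to those of each member was Cd47 for Sod1, Ttpa for Sod2, Lysmd4 for Sod3, Sdc2 for Cat, Ebag9 for Gpx1, Ndufa12 for Gpx3 and B2m for Gpx4, among 12225 single-symbol probe sets tested. The root mean square difference was 0.02 to 0.10 on the log2 scale. These genes were picked for that likeness on the same 8 arrays, so it is a description and no test was made of it.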

How the data were processed

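Biotin-labelled total RNA from liver was put on Affymetrix arrays, as the labels' protocols state. The deposited values are linear intensities that the authors made with MAS5, per the submitters' processing notes; its version is not given in the sources used here, nor are a scaling target or detection calls. The 57 control probe sets were left out, the other 31042 were quantile-normalized, and a pseudocount of 2.05 (10% of the median signal, 20.5) was added before log2. The dimmer 50% were left out, which left 15521. Quantile normalization hides a shift of most transcripts one way. Groups were compared in limma 3.58.1 (R 4.3.3; lmFit, eBayes with trend, Benjamini-Hochberg over all 15521, threshold 0.05), which also gave the SE and the 95% intervals; a fold change is one of signal plus pseudocount, and so understates that of a dim probe set. The step was tried on simulated data with independent noise for each probe set and no difference in array brightness. That trial therefore does not cover the brightness difference between these arrays. Single values used an exact two-sided permutation test.

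Members and lists were chosen with earlier results of these data known. Named genes were all members, up to 4 of each list in order of p, the marker genes given, and the nearest gene of each member. Other normalizations, pseudocounts, filters, priors, array weights, a replicate block and leaving out each array were tried as alternatives; array brightness as a covariate was added after seeing the data. Probe symbols came from the platform annotation, and 7 of 7 members matched RefSeq by Entrez ID. Depth has no equivalent on arrays, whose number limits the precision.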

Additional observations from a re-analysis of the deposited data

Results flagged for a closer look

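Of the 24 groups of 4 arrays checked for the 8 probe sets and the 4 ratios, 2 held an array far from the other 3, where chance flags about 1 group in 20. The log2 signal of Cat minus that of Sod1 was −0.00624 on hydrogen water array 4, where the nearest of the other hydrogen water arrays was at −0.20. The log2 signal of Sod2 minus that of Sod1 was −3.01 on control array 1, where the nearest of the other control arrays was at −3.26.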

How the results depend on the processing

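No member passed under any of the 21 alternatives, and Sod3 kept its sign in all 21. The count over all tested probe sets was 128 as reported, 12 with array brightness as a covariate, 64 when the prior had no trend and 505 on the unnormalized arrays. It was 61, 197 or 58 when control array 2, 3 or 4 was left out and 61, 55 or 71 when hydrogen water array 1, 3 or 4 was, a range of 55 to 197. Of the 128, 53.9% were higher, against 4.16% without normalization, 35.03% under median scaling and 70.8% under spike-in scaling. Signs turned as follows, and the cause was not tested. Without normalization Sod2 was at −0.228, Gpx1 at −0.0439, Gpx4 at −0.225 and the Sod2 to Sod1 ratio at −0.00379. That ratio was −0.00448 under median, −0.00458 under trimmed mean and −0.00475 under spike-in scaling. Sod1 was at 0.0620 under median, 0.101 under trimmed mean and 0.166 under spike-in scaling, at 0.00745 under cyclic loess, and at −0.0404 to 0.0112 when an array was left out (0.0112 without control array 2, 0.0105 without hydrogen water array 4). Cat was at 0.00856 under trimmed mean and 0.0733 under spike-in scaling, and Gpx3 at 0.0295 with array brightness as a covariate. With that covariate Gpx1 was at 0.11, with an interval of −0.06 to 0.28 (adjusted p = 0.694 in limma), and its interval also included 0 without normalization, without a filter (lower bound −0.01), without a trend (−0.04) and without control array 3 (−0.0025), so that it lay above 0 in 16 of 21 alternatives; its adjusted p ran from 0.143 to 0.804 over all alternatives. The Gpx1 to Sod1 ratio ran from 0.15 to 0.21 when an array was left out. Its exact permutation p was 0.0286 without any 1 hydrogen water array and 0.0857 to 0.114 without any 1 control array. The Gpx1 to Cat ratio ran from 0.20 to 0.28 (exact permutation p = 0.0286 throughout). Replicate numbers were shared between groups, but the deviations of same-numbered arrays correlated at −0.10, 0.04, 0.19 and −0.00, so the numbers were not taken as pairs; with the replicate block 181 probe sets and 0 members passed. No detection calls were used, so for the second Gpx4 probe set signal cannot be set apart from background.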
